A study of Drosophila melanogaster with 2 samples.

Results

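The translation initiation factor genes are the protein-coding genes of Drosophila melanogaster whose symbol begins with eIF in the Ensembl annotation of the BDGP6 assembly, whose coordinates are those of dm6. There are 44 of them among 13945 protein-coding genes, and the rule that selects them uses gene names and no measured value. They were examined for peaks of CG17806, a zinc-finger protein, in chromatin immunoprecipitation and sequencing (ChIP-seq). The material was whole pupae aged 24 hours from a single transgenic line in which the C-terminus of CG17806 carries green fluorescent protein (GFP), precipitated through an antibody to GFP. The 2 biological replicates form 1 group, so there is no untreated or mutant group to compare with; the sex of the pupae was not collected, and the labels do not name the sequence that drives the fusion gene. Each replicate has its own list of 30000 peaks, a pooled list of 30000 peaks was called on both replicates, and 7645 peaks passed a threshold on the irreproducible discovery rate (IDR). Read depth is unknown, and the signal of a peak is the authors' value on an unstated scale, so it serves only to rank peaks within a list, with rank 1 the strongest.

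Initiation factors bring the ribosome to the start codon of a messenger RNA. The eIF4 proteins recognise the cap at the 5′ end and unwind the leader, eIF2 delivers the initiator transfer RNA, eIF3 holds the small subunit in place, and eIF1, eIF1A, eIF5 and eIF5B govern start codon choice and subunit joining. Growing tissues need these factors in quantity, and a few members, such as eIF4EHP, restrain translation instead of promoting it.

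A gene is called bound here when a peak summit lies within 500 bp of any of its annotated start sites. In the IDR list 10 of the 44 genes were bound, which is 22.7% (Wilson 95% interval 12.8 to 37.0). Of the 13901 other protein-coding genes 2703 were bound, a share of 19.4%, so the members' share stood near the background. In the pooled list 23 members were bound (52.3%, interval 37.9 to 66.2), beside 45.3% of the other genes. The list of replicate 1 had a summit at 25 members and that of replicate 2 at 19, beside 47.2% and 42.1% of the other genes. In both replicate lists 15 members were bound, or 34.1%, beside 33.1% of the other genes. A total of 14 members had no summit near a start site in any list, or 31.8%, beside 43.1% of the other genes. The intervals cover counting error only.

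The 10 bound genes were eIF4EHP, eIF6, eIF3h, eIF5B, eIF2D, eIF1, eIF4G2, eIF3m, eIF4H1 and eIF2A, in order of rank. Ordered by role, the IDR summits were at 2 of the 4 genes for start codon selection and joining, 0 of 3 eIF2 genes, 0 of 5 eIF2B genes, 2 of 16 eIF3 genes and 2 of 12 genes for cap binding and unwinding. All 4 remaining genes, eIF2A, eIF2D, eIF4EHP and eIF6, were bound. The protein of eIF4EHP also binds the cap, but the gene was placed here and not with the cap-binding genes. The counts of these groups depend on that choice. The share among other protein-coding genes was 19.4%. These groups are small and their difference was not tested. At eIF1, eIF4EHP and eIF6 the start site of another gene was nearer, and all of them were lost when only the closest start site counted. Both replicates had a partner summit for each of the 10, at most 90 bp away (eIF3m in replicate 1), which in part follows from how the IDR list was made.

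**Figure D1:**
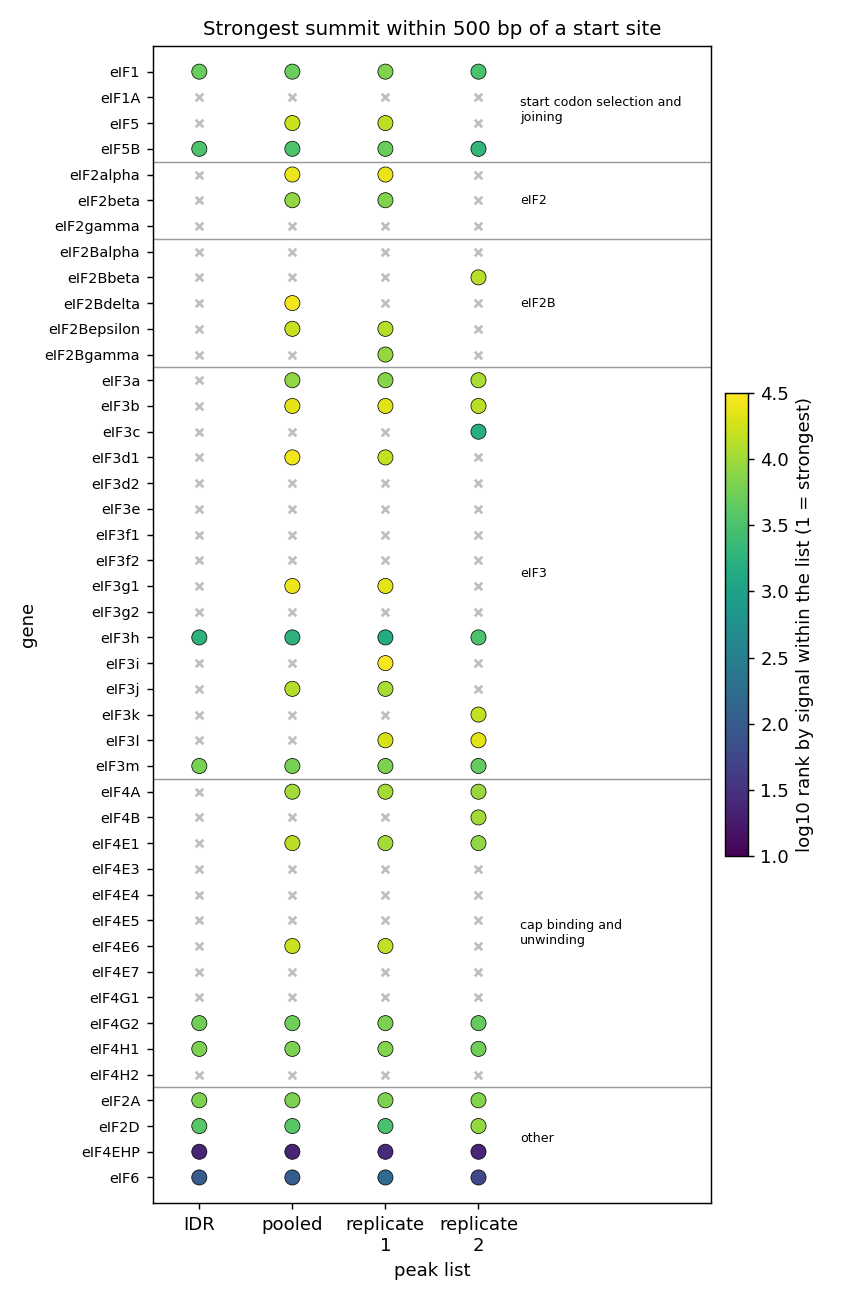
Rank of the strongest summit within 500 bp of a start site for each of the 44 genes (rows, grouped by factor) in the 4 peak lists (columns); colour gives the log10 rank by signal, dark for the strongest, and a grey cross means no summit. eIF4EHP and eIF6 are dark in all 4 lists, and 14 genes have crosses throughout.

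The DNA under 6 of the 10 peaks, those of ranks 22 and 1764 to 5343, is shown because the peaks differed in base composition; the window of eIF6, at rank 100, is not printed. Each line gives 101 bases centred on the IDR summit, read 5′ to 3′ on the strand of the gene from the Release 6 RefSeq genome (dm6 coordinates). Capitals mark matches, on either strand, to TATAAA (the TATA box), TATCGATA (the DNA replication-related element), GGTCACAC (the core of Ohler motif 1), CACGTG (the E-box), GAGAG (GAGA) or AAAAAA (a run of A or T). The windows are chr3R:24109160-24109260 on the minus strand for eIF4EHP, chr2L:5052434-5052534 on the minus strand for eIF3h and chr3L:3460721-3460821 on the minus strand for eIF5B. Those of the next genes are chr3R:29151846-29151946 on the minus strand for eIF2D, chr3L:3222973-3223073 on the plus strand for eIF1 and chr3R:23818967-23819067 on the minus strand for eIF4G2.
eIF4EHP: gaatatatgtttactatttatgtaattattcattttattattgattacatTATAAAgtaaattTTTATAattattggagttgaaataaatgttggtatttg
eIF3h: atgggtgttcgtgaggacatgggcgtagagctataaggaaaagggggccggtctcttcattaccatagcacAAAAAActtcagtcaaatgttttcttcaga
eIF5B: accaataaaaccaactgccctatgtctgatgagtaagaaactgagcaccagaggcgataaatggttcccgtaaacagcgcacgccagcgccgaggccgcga
eIF2D: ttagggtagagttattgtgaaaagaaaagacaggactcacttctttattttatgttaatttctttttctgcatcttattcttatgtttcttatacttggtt
eIF1: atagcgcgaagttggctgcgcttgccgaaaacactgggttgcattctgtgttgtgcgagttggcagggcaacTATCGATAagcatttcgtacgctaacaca
eIF4G2: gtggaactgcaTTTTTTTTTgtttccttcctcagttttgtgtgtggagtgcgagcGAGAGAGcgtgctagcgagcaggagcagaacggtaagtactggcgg
The eIF4EHP window is 84.2% A or T with 2 TATA box matches, and the eIF2D window is 72.3% A or T with none of the 6 motifs. The windows of eIF5B (46.5%), eIF4G2 (48.5%) and eIF1 (49.5%) are close to even in composition, and that of eIF1 holds the DNA replication-related element.

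The strongest member peak belonged to eIF4EHP (FBgn0053100), which encodes a protein that binds the cap without recruiting eIF4G and represses translation in the fly embryo. The peak lay at chr3R:24108940-24109417, with its summit 250 bp upstream of the only annotated start site. It ranked 22 of 7645 in the IDR list, 26 in replicate 1 and 23 in replicate 2, and the summits of the replicates lay 0 and 12 bp from the IDR summit. The position is shared with a divergent gene, CG18428, whose start site was closer at 126 bp. The peak therefore cannot be given to 1 of the 2 genes from its position. The 45884 bp transcribed span of eIF4EHP held 3 further IDR summits, all in introns, at ranks 3475, 4488 and 5167. The one at rank 4488 lay 659 bp from a start site of Syx1A and 2538 bp inside eIF4EHP.

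The next strongest was at eIF6 (FBgn0034915), a factor of large subunit assembly that also keeps the subunits apart. Its peak, at chr2R:23850211-23850582, ranked 100 in the IDR list, 160 in replicate 1 and 55 in replicate 2. The summit was 89 bp upstream of eIF6 and 60 bp downstream of the start of an antisense RNA, asRNA:CR45928, in an exon of that RNA. At 57.4% A or T, it had a TATA box match within 50 bp.

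Among the eIF3 genes, eIF3h (FBgn0022023) had a peak of rank 1764 at chr2L:5052323-5052601, with rank 1374 in replicate 1 and 3259 in replicate 2. The summit was 296 bp downstream of the nearer start site, in an intron, and 610 bp downstream of the outermost one. It was also 359 bp upstream of senju, which is transcribed in the opposite direction from within the same stretch. The peak of eIF3m (FBgn0033902) ranked 6009, with 6416 and 4737 in replicates 1 and 2. Its summit was 66 bp upstream of eIF3m and 160 bp upstream of the divergent gene CG8323.

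The start codon genes differed in how their peaks were placed. At eIF1 (FBgn0035423), whose protein keeps the scanning ribosome from stopping at wrong codons, the IDR peak at chr3L:3222935-3223121 ranked 4994, with 6706 and 3135 in the replicates. The summit was 318 bp upstream of eIF1 but only 63 bp upstream of the divergent ribosomal protein gene RpL28. A second and weaker summit lay 108 bp upstream of eIF1 in the pooled list at rank 7893, just below the IDR threshold. It was found again 110 bp upstream at rank 9175 in replicate 1 and 81 bp upstream at rank 9279 in replicate 2. At eIF5B (FBgn0026259), which encodes the GTPase of subunit joining, the promoter peak at chr3L:3460696-3460884 ranked 3367, with 5016 and 1984 in the replicates.

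eIF5B also carried the most IDR summits of any member within its transcribed span, 7 in 32320 bp, and 6 of these were in introns. The strongest intronic summits ranked 1118, 1544 and 2598, above the promoter peak, and lay 18356, 16163 and 17251 bp downstream of the nearest eIF5B start site. The intervals of these 3 peaks span chr3L:3442094-3442417, chr3L:3444296-3444580 and chr3L:3443251-3443487. The summit at rank 1118 was nearer a start site of sty, at 17312 bp. So were the intronic summits at ranks 4327 and 4587, at 13695 and 7954 bp. Whether the intronic summits act on eIF5B or sty was not tested. The count within eIF5B was not compared with that in other genes of like length.

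Among the genes for cap binding and unwinding, eIF4G2 (FBgn0260634) encodes a second eIF4G, the scaffold that links the cap-binding protein to the ribosome. Its peak, at chr3R:23818829-23819204, ranked 5343, with its nearest summits at 6527 in replicate 1 and 4738 in replicate 2. It lay in a 5′ leader exon that eIF4G2 shares with CG33111, with the same start site on the same strand. The peak of eIF4H1 (FBgn0262734), whose family assists the helicase eIF4A, ranked 6358, with 7137 and 5291 in the replicates. Its summit was 174 bp upstream of the inner start site and 313 bp downstream of the outer one.

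eIF2A and eIF2D encode factors that can deliver transfer RNA to the ribosome without eIF2. The peak of eIF2D (FBgn0041588), at chr3R:29151852-29152006, ranked 3916 in the IDR list and stood 102 bp upstream with no other start site within 500 bp. It ranked 3098 in replicate 1 but 8483 in replicate 2. The peak of eIF2A (FBgn0037135) ranked 6365, with 6493 and 7199 in the replicates, 69 bp upstream of the inner start site. Its summit window, 51.5% A or T, held both the DNA replication-related element and the core of Ohler motif 1.

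Taking each gene's nearest start site, 9 of the 10 IDR summits were upstream (Wilson 95% interval 59.6% to 98.2%), with a median position 135 bp upstream. At other protein-coding genes 79.5% of 2231 summits were upstream, with a median of 130 bp. The first 200 bp upstream contained 7 of the 10 member summits and 50.4% of the others. Each summit was placed by the nearest start site within its own set of genes. The nearest start site of any gene was in that set for 7 of the 10 member summits and 2190 of the 2231 others. The 2 sets of positions are therefore not fully alike. Measured from the outermost start site of each gene, only 5 of the 10 were upstream (interval 23.7% to 76.3%), beside 56.1% at other genes. The summits of eIF2A, eIF4G2, eIF4H1 and eIF5B thus lay between annotated start sites of their own gene, 156 to 313 bp downstream of the outermost one.

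**Figure D2:**
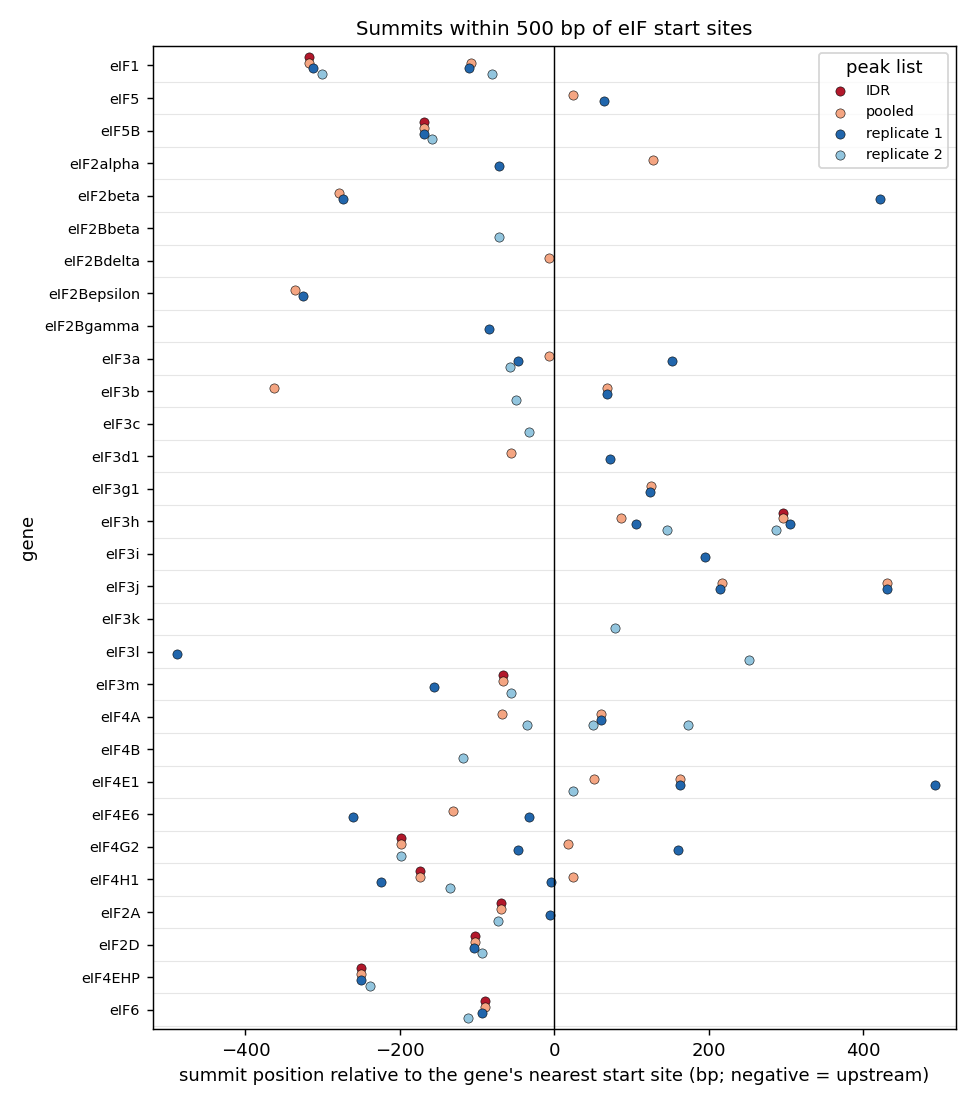
Position of each summit in bp relative to the nearest start site of the gene (x axis, negative upstream) for the 30 genes with a summit in any list, coloured by peak list. IDR summits are upstream for every bound gene except eIF3h, at 296 bp downstream, and the weaker pooled and replicate summits fall on both sides.

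Bound members were spread over the ranks. The median rank of their strongest IDR summit was 4455, against 3451 for the 2703 other bound genes, with eIF4EHP and eIF6 far above the other members. Among the 1000 strongest pooled peaks 2 members were bound (4.55%, beside 3.44% of other genes). Among the 5000 strongest there were 6 (13.6%, beside 13.5%). In the other lists the order was the opposite. The medians were 8280 for the members and 9122 for the other bound genes in the pooled list, 8578 and 9387 in replicate 1, and 7199 and 7917 in replicate 2. These differences were not tested.

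Of the 10 summits, 6 lay within 500 bp of a start site of at least 1 further gene, beside 36.9% of the 2231 summits at other genes. In 3 cases, eIF1, eIF4EHP and eIF6, the start site of another gene was nearer. Genes with more start sites have more sequence in reach. Of the 29 members with 1 start site 4 were bound (13.8%), and of the 15 with 2 or more 6 were bound (40.0%). The same shares among other genes were 14.5% and 33.2%, and 34.1% of members but 26.5% of other genes had 2 or more start sites.

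**Figure D3:**
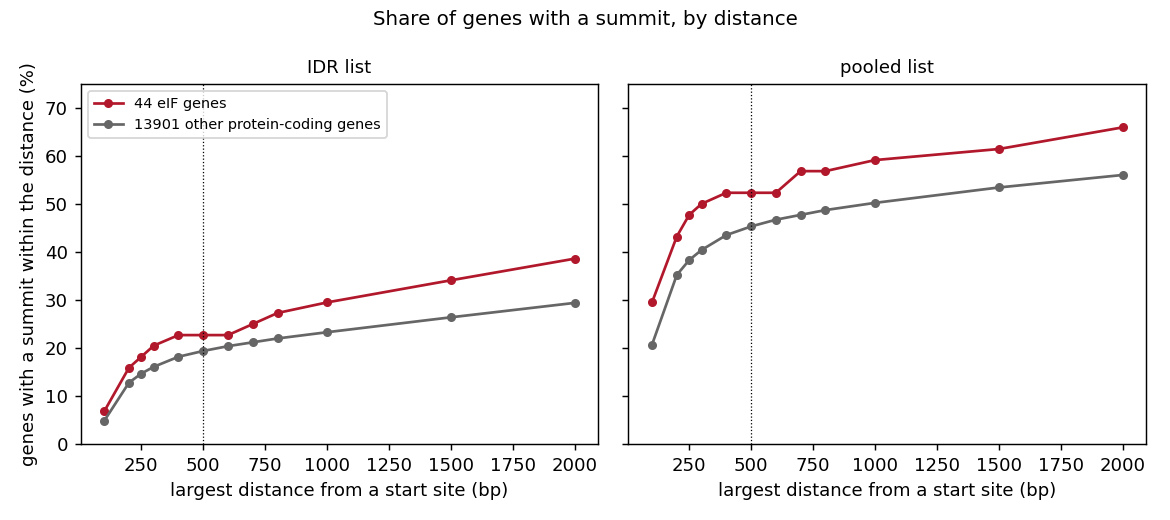
Percentage of genes with a summit (y axis) within a given distance in bp of a start site (x axis) for the eIF genes and the other protein-coding genes, in the IDR and pooled lists; the dotted line is 500 bp. At 500 bp the IDR shares are 22.7% and 19.4%, and at 2000 bp 38.6% and 29.4%.

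The distance limit left out both strong and weak IDR peaks. Bound members closest to the limit were eIF3h and eIF1, at 296 and 318 bp, and no member had its nearest IDR summit between 318 and 690 bp. The IDR summit 690 bp upstream of eIF2Bbeta (FBgn0024996), the beta subunit of the exchange factor that recharges eIF2 with GTP, ranked 2 in the list. The one 716 bp upstream of eIF2Bdelta (FBgn0034858) ranked 879. In eIF1A (FBgn0026250) an IDR summit of rank 5774 lay 863 bp downstream of the start site in an intron. Altogether 7 members had their nearest IDR summit beyond 500 and up to 2000 bp (15.9%, beside 9.91% of other genes). The ranks of these summits ran from 2 to 7052, at eIF4A. The summit of eIF2alpha, 1985 bp upstream at rank 6358, is the one already counted at eIF4H1. The median distance from a start site to the nearest IDR summit was 3920 bp for members and 6130 bp for other genes.

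The eIF2 complex itself had weak or single-replicate peaks. At eIF2beta (FBgn0004926), the pooled summit 279 bp upstream ranked 8203, and replicate 1 had a summit 274 bp upstream at rank 6599. In replicate 2 the nearest summit was 542 bp from the start site, outside the limit. eIF2alpha (FBgn0261609), the subunit that stress kinases phosphorylate, had a pooled summit of rank 25111 with a −log10 q of 0.615, which is a q-value above 0.05. eIF2gamma (FBgn0263740) had none in any list. The eIF2B genes had no IDR summit. eIF2Bepsilon was bound in the pooled list and replicate 1, at ranks 15991 and 12792, and eIF2Bgamma in replicate 1 alone, at rank 8578. The eIF2Bepsilon summits, 336 and 326 bp upstream, lay in a 5′ leader exon of Ocrl. They were nearer the start site of Ocrl, at 229 and 219 bp. eIF2Bdelta was bound in the pooled list alone, at rank 27206, eIF2Bbeta in replicate 2 alone, at rank 13261, and eIF2Balpha in none.

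The largest disagreement between replicates was at eIF3c (FBgn0034258), which encodes a core subunit of eIF3. Replicate 2 had a peak there at chr2R:17665548-17665737 with its summit 33 bp upstream and a rank of 1582. In replicate 1 the nearest summit to the start site was 3493 bp away, and in the pooled list 3551 bp. Such cases were rare among the other genes. Of 781 other genes with a replicate 2 summit of rank 1582 or better, 10 (1.28%) had no summit in replicate 1, and the reverse held for 2 of 658 (0.304%). The rank limit was that of eIF3c itself, picked as the largest disagreement among the members, so how unusual it is was not tested. The other members within the limit in replicate 2, eIF4EHP and eIF6, had summits in both replicates.

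Over the 15 members bound in both replicate lists, the ranks of their strongest summits had a Spearman correlation of 0.811, and over 4604 other genes 0.806. These are correlations across genes, which share the 2 libraries and are not independent. The 2 summits of a gene were not required to lie at the same place. At eIF3a, eIF3b, eIF3l, eIF4A and eIF4E1 they lay more than 100 bp apart. The correlation therefore does not measure agreement on single peaks. A further 10 members had a summit in replicate 1 only (22.7%, beside 14.1% of other genes) and 4 in replicate 2 only (9.09%, beside 8.95%).

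**Figure D4:**
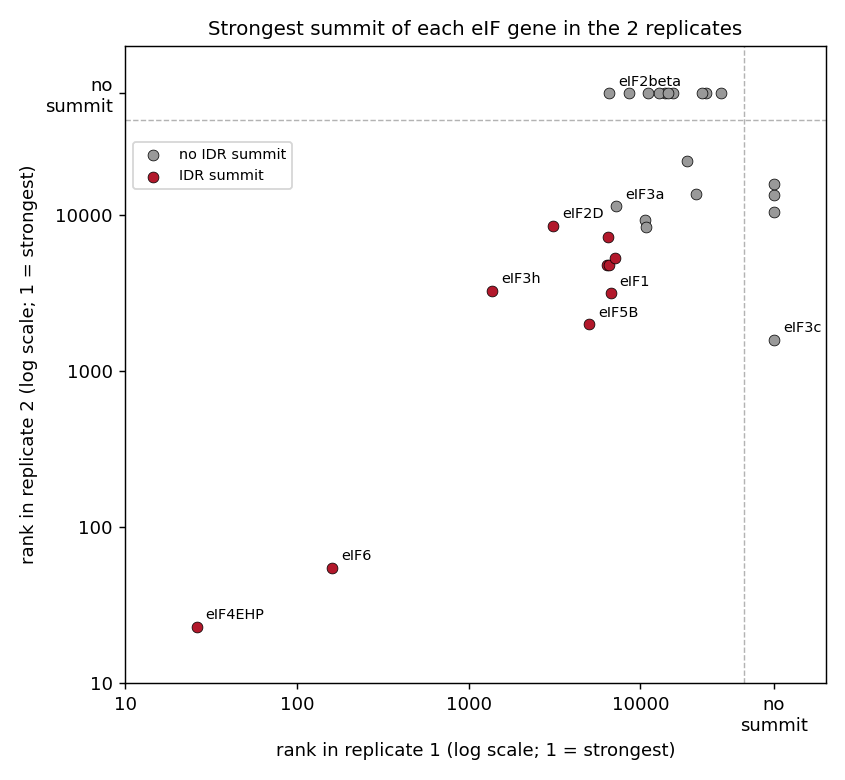
Rank of the strongest summit within 500 bp of a start site in replicate 1 (x axis) and replicate 2 (y axis), both on log scales, for each eIF gene with a summit in either; red points have an IDR summit, and points beyond the dashed lines lack a summit in that replicate. eIF4EHP and eIF6 are the strongest in both, and eIF3c has rank 1582 in replicate 2 and no summit in replicate 1.

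Of the 10 eIF3 subunits that have a single gene, 2 were bound in the IDR list, 5 in the pooled list and 7 in each replicate list, and only eIF3e was in none. Among other protein-coding genes the shares were 19.4% in the IDR list, 45.3% in the pooled list, 47.2% in replicate 1 and 42.1% in replicate 2. eIF3a (FBgn0037249), the largest subunit, had a pooled summit 7 bp upstream at rank 8280. Replicate 1 had its strongest summit 153 bp downstream at rank 7261 and another 47 bp upstream at rank 14737. Replicate 2 had a summit 57 bp upstream at rank 11378. eIF3j, a loosely held subunit, had pooled and replicate 1 summits 217 and 215 bp downstream at ranks 12993 and 11146, and none in replicate 2. eIF3b had ranks of 22659 in the pooled list and 21119 in replicate 1, both 69 bp downstream, and 13540 in replicate 2, 50 bp upstream. eIF3l had a replicate 1 summit 489 bp upstream at rank 18619, in a 5′ leader exon of Nrx-IV, and none in the pooled list. Its replicate 2 summit lay 252 bp downstream at rank 22130. eIF3i was found in replicate 1 alone, at rank 29331, and eIF3k in replicate 2 alone, at rank 15678. 3 further subunits have a pair of genes each. The first copies eIF3d1 and eIF3g1 had pooled summits at ranks 26500 and 26114 and replicate 1 summits at 15596 and 22992, while eIF3f1 had none. The second copies eIF3d2, eIF3f2 and eIF3g2 had no summit in any list. Of the other protein-coding genes 43.1% had none either. These groups are small and the difference between them was not tested.

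Among the cap-binding proteins of the eIF4E family, eIF4E1 (FBgn0015218) had pooled summits 163 and 51 bp downstream at ranks 13550 and 15699. The strongest summits of the replicates were at different start sites. That of replicate 1, at rank 10781, lay 163 bp downstream of an inner start site. That of replicate 2, at rank 8325, lay 24 bp downstream of the outermost one. eIF4E6 had a pooled summit 131 bp upstream at rank 16670 and a replicate 1 summit 33 bp upstream at rank 14475, the latter between its start site and that of the divergent gene CG1951. The pooled summit lay in a 5′ leader exon of CG1951, 69 bp from the start site of that gene. The other 4 genes of the family, eIF4E3, eIF4E4, eIF4E5 and eIF4E7, had none in any list. The helicase gene eIF4A (FBgn0001942) had a summit 61 bp downstream of an inner start site, at rank 10415 in the pooled list and 10640 in replicate 1. The strongest summit of replicate 2, at rank 9190, lay elsewhere, 35 bp upstream of the outermost start site. The replicate 2 summit 50 bp downstream of the inner start site ranked 20023. eIF4B had a summit in replicate 2 alone, 118 bp upstream at rank 10438, and lies in a stretch of 3L where the nearest IDR summit was 4948262 bp away. eIF4G1, on chromosome 4, and eIF4H2 had none in any list. eIF5 (FBgn0030719), which stimulates GTP hydrolysis by eIF2, had a pooled summit 25 bp downstream at rank 16365 and a replicate 1 summit at rank 13969. It shares this start site with CG46312.

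The members bound in the pooled list without an IDR summit numbered 13, and 5 of them had a q-value above 0.05, namely eIF2alpha, eIF2Bdelta, eIF3b, eIF3d1 and eIF3g1. The corresponding numbers were 2 of 15 in replicate 1 and 4 of 9 in replicate 2. Of all 30000 peaks of a list, those at IDR peaks included, 37.3% had a q-value above 0.05 in the pooled list, 20.1% in replicate 1 and 57.4% in replicate 2.

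Member summits held less A and T than the typical promoter summit. Within 50 bp of the 10 summits the median share of A and T was 53.5%, with a range from 36.6% at eIF4H1 to 84.2% at eIF4EHP. At the 2231 summits of other protein-coding genes the median was 69.3% (quartiles 62.4% and 75.2%), and 8 of the 10 member summits fell below the lower quartile. Among IDR peaks ranked below 3000, a split chosen after seeing the data, the medians were 49.5% for 7 member summits and 67.3% for 1317 others. In the pooled list the medians were 51.5% for 31 member summits and 61.4% for 7684 others. In replicates 1 and 2 they were 53.5% and 58.4% for members and 60.4% and 63.4% for others. The centre was richer in A and T than the flanks 250 bp away at 6 of the 10 member summits, beside 81.2% of the others. The difference was not tested. The promoters themselves, from 250 bp before to 50 bp after the start sites, did not show it: the median A and T share was 63.5% for members and 61.5% for other genes.

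**Figure D5:**
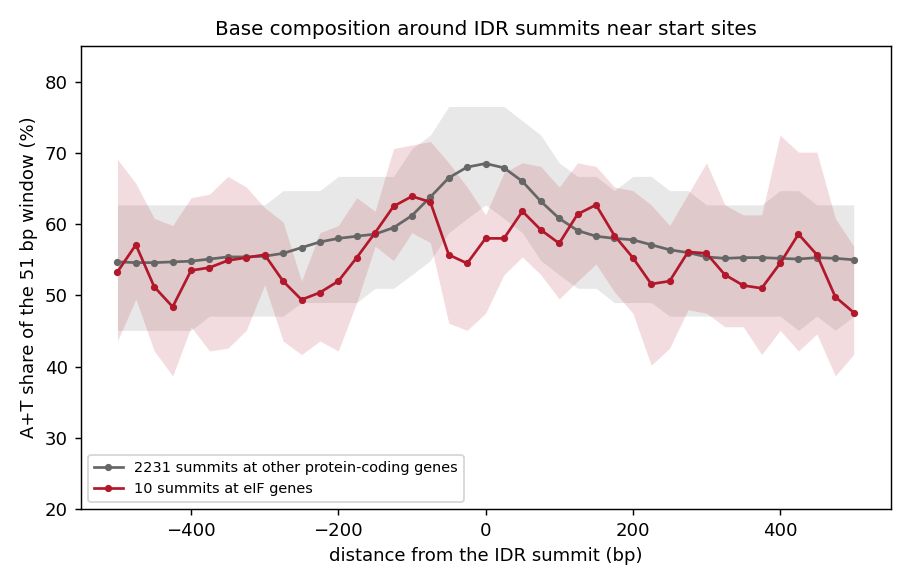
Mean share of A and T in windows of 51 bp (y axis) against distance from the IDR summit in bp in the direction of the genome (x axis) for 10 summits at eIF genes and 2231 at other protein-coding genes; shaded bands are the quartiles over summits. The grey curve peaks at the summit, and the red curve, at 58.0% there, has no peak at the centre. Off centre the red curve is higher in places, with 63.9% against 61.2% at -100 bp and 62.7% against 58.3% at 150 bp. At 100 bp it is lower, with 57.3% against 60.8%.

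The 8-base DNA replication-related element, bound by the transcription factor Dref at many housekeeping promoters, was found in the promoters of 13 members. That is 29.5%, beside 10.2% of all protein-coding promoters and 29.4% of the 85 ribosomal protein promoters. It was at 2 of the 10 bound and 11 of the 34 unbound members (32.4% of the latter). Among other genes it was at 13.8% of the bound and 9.22% of the unbound. The bound members with it are eIF2A and eIF6. Within 50 bp of the summit it was found at 2 of the 10, eIF1 and eIF2A, beside 1.48% of the summits at other genes. The eIF1 summit was nearer the start site of the ribosomal protein gene RpL28, at 63 bp, and the promoter of eIF1 itself lacked the element.

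Each of the other motifs was counted in the same promoters. The core of Ohler motif 1 was in 8 member promoters (18.2%, beside 8.71% of all), the TATA box in 20 (45.5%, beside 51.3%), the E-box in 4 (9.09%, beside 5.34%), GAGA in 13 (29.5%, beside 36.4%) and the run of A or T in 27 (61.4%, beside 56.5%). Near the summits, the TATA box was at 2 of 10 and at 24.8% of the others, and the run of A or T at 2 of 10 and at 31.9%. The TCT initiator of ribosomal protein promoters was searched as CTTT on the gene's strand with its C within 5 bp of the start site. It was at 65.9% of 85 ribosomal protein genes but at 4 members (9.09%, beside 8.07% of all), eIF3f1, eIF3i, eIF3m and eIF4A. A match is a description of the letters and shows no binding.

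Other genes of the translation pathway were examined with the same rule. The list holds elongation, release and recycling factors and regulators of initiation, and 26 of 27 symbols matched. Of the 26, 10 were bound in the IDR list (38.5%, Wilson 95% interval 22.4 to 57.5), beside 19.4% of other protein-coding genes. The pooled list had 22 (84.6%, beside 45.3%), and both replicate lists held 18 of them (69.2%, beside 33.1%). Within 500 bp of a start site the strongest IDR peak was at pAbp, the poly(A)-binding protein gene, with rank 2252 and its summit 474 bp downstream. The pAbp IDR summit nearest a start site, at 89 bp, ranked 6229. The strongest pAbp summits ranked 1875 in replicate 1 and 9526 in replicate 2, 474 and 101 bp downstream. After pAbp came crc, which encodes the fly ATF4, with rank 2557. Next were eEF1gamma, of the elongation factor complex, with rank 2638 and eRF3, a release factor, with rank 3409. The genes for the eIF4E-binding protein cup and for DENR, which acts in reinitiation, were not bound in the IDR list. The transcribed span of cup nevertheless held 3 IDR summits, the strongest at rank 2115. Lk6 and PPP1R15, also unbound, had IDR summits of rank 15 and 126 at 972 and 1297 bp from a start site. The difference between this list and the eIF genes was not tested.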

How the data were processed

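The peak lists are on dm6. Per the descriptions that accompany the deposited files, each replicate list was made from 1 alignment and a control alignment. The pooled list used the 2 replicate alignments with the same control, and the IDR list came from the other lists. The aligner and the peak caller are not stated there. The authors' deposited signal per peak was used for ranks only. The deposited −log10 q-value is at its ceiling of 4.228 in every IDR peak and goes down to 0.405 in the pooled list, 0.735 in replicate 1 and 0.146 in replicate 2. The summit of a peak is its deposited interval start plus the other deposited value, an offset in bp.

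Annotation was that of Ensembl release 115, and bases were read from the Release 6 RefSeq genome, whose arms held all peaks and genes. Python 3.11.15, pandas 2.3.3 and scipy 1.17.1 were used. Members are described by counts beside those of all other protein-coding genes, with no list test. The member rule uses gene symbols alone, but this gene family, the lists and the alternatives were chosen with earlier results of these data known. Every member is accounted for, and the other pathway genes named are the 4 strongest bound and the first 2 unbound by alphabet. Lk6 and PPP1R15 are also named, for strong IDR peaks beyond 500 bp. Alternatives were other distances, nearest start sites only, stronger peaks and single replicates. The assignment of summits to start sites was tested on simulated data.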

Additional observations from a re-analysis of the deposited data

How the results depend on the processing

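The IDR count of 10 bound members was 8 within 250 bp (14.7% of other genes), 13 within 1000 bp (23.3%) and 7 when a summit counted only for the closest start site (14.6%), where eIF1, eIF4EHP and eIF6 were lost. The 13 include eIF1A, eIF2Bbeta and eIF2Bdelta. Among the 1911 strongest IDR peaks the count was 3, eIF4EHP, eIF6 and eIF3h, beside 6.0% of other genes. That of the other pathway genes was 0 there, as their strongest peak within 500 bp of a start site, at pAbp, ranked 2252. Their bound genes thus all came from weaker IDR peaks. A shorter list can only lower both counts, but its length does not fix how far they fall. With the 7645 strongest peaks of a single replicate the member count ranged from 10 to 12 (20.5% and 19.2% of other genes). Of these, 9 and 10 genes were shared with the IDR list. Replicate 1 added eIF2beta and eIF3a, and replicate 2 added eIF3c and lost eIF2D. The other pathway genes ranged from 9 to 11 there. Pooled and replicate counts stayed within 1.5 times of the reported ones within 250 and 1000 bp, with nearest start sites only and with a q-value below 0.05. Farther from 500 bp some did not: within 100 bp there were 13 pooled, 12 in replicate 1 and 11 in replicate 2, against 23, 25 and 19, and replicate 2 had 32 within 1500 bp and 33 within 2000 bp. The median rank of 4455 was 3197 to 6454.5 in single replicates and 3916 to 5343 under the other alternatives.

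The share of upstream summits was 100% within 250 bp, where eIF3h drops out, and ranged from 69.2% to 90% in single replicates. The median A and T share was 54.5% within 250 bp, 59.4% within 1000 bp, 51.5% with nearest start sites only and 58.0% in windows of 100 bp to each side, and ranged from 54.5% to 55.4% in single replicates. Chosen after seeing the data were the outermost start site, with 50% upstream, and IDR peaks ranked below 3000, with 49.5% A and T. The cause of these shifts was not tested. No paired analysis was possible because there is 1 group. Read depth is unknown.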
